A study of Mus musculus with 6 samples.

Results

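Neutrophils are short-lived white blood cells that enter injured or infected tissue and carry ready-made granules of antimicrobial protein. Granules are filled in order while the cell matures in the bone marrow: primary granules with myeloperoxidase and neutrophil elastase come early, and specific granules with lactoferrin, lipocalin-2, the cathelicidin and neutrophilic granule protein come later. The transcripts of most granule proteins have faded by the time the cell leaves the marrow, whereas receptors such as Csf3r stay expressed in mature cells. Lactoferrin (Ltf) and lipocalin-2 (Lcn2) are also made by glands and by inflamed epithelium. Granulocyte colony-stimulating factor, the product of Csf3, drives neutrophil production, and CXC chemokines that bind CXCR2 draw the cells into tissue.

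The genes described here are 10 such genes, chosen by symbol: the granule genes Elane, Mpo, Camp, Ngp, Ltf and Lcn2, the secreted resistin-like gene Retnlg, the receptor genes Csf3r and Trem1, and the ligand gene Csf3. All 10 were among the 41253 gene symbols in the files, and 8 passed the filter on low counts that left 17663 genes to test. RNA had been sequenced from oesophageal squamous cell carcinomas of C57BL/6 mice. One group was labelled wild type (WT, Ptpro+/+) and the other Ptpro-/- (Ptpro-KO), which stands for loss of Ptpro, a gene for a tyrosine phosphatase receptor, and each had 3 mice. Mice of both groups drank water with 4NQO, a DNA-damaging carcinogen, labelled as 100 mg/mL, from 6 weeks of age for 16 weeks. They were followed for a further 12 weeks to an age of 34 weeks, or less where weight loss was severe; an age tag of week 6 in the labels matches the start of treatment. No untreated oesophagus was part of the design, and each library is whole tumour tissue, so fewer neutrophils and less RNA per neutrophil cannot be told apart.

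The libraries held 25745240 to 39827467 reads on annotated transcripts, and the gene of the genotype ran against its labels. In CPM, a read count divided by scaled library size, Ptpro was measured at 5.05, 0.359 and 2.38 under the WT label and at 30.3, 42.8 and 50.6 under the Ptpro-KO label, so every direction below is between libraries as labelled. Squamous markers were abundant in all 6 libraries: the 14 fixed genes summed to 65769 to 74900 CPM under the WT label and to 21990 to 28085 under the Ptpro-KO label. Ptpro-KO replicate 3 also carried stomach transcripts (Pgc at 6209 CPM) and Ptpro-KO replicate 2 thyroid transcripts (Tg at 774 CPM). Pgc was at most 3.49 CPM and Tg at most 2.60 CPM in the other libraries. Muscle transcripts varied widely under both labels. Acta1 stood at 4266, 50.1 and 2709 CPM under the WT label and at 4130, 1996 and 46.8 under the Ptpro-KO label. Xist was high in WT replicate 1 and Ptpro-KO replicates 1 and 3, which were taken as 1 female mouse under the WT label and 2 under the other. Y-linked genes were not absent there: they summed to 88.8 CPM in WT replicate 1 and to 105 and 103 in Ptpro-KO replicates 1 and 3. In the other libraries they summed to 342 to 400 CPM.

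Camp, Ngp and Ltf lie near each other on mouse chromosome 9 (GRCm38, the assembly called mm10). Camp is at 109847379 to 109849617 on the minus strand, Ngp at 110419747 to 110423012 and Ltf at 111019271 to 111042767, both on the plus strand, with gaps of 570 kb and 596 kb between neighbours. Camp and Ngp encode related proteins with a cathelin-type domain. Lcn2 is on chromosome 2 (32384633 to 32388252, minus) and Retnlg on chromosome 16 (48872621 to 48874496, plus). The 250 bases before the RefSeq start of each gene (GRCm38.p6) are shown for these specific granule genes and for Retnlg, because the libraries set them apart although neutrophils make all of them. Capitals mark TTNNGNAA on either strand, a loose form of the site bound by C/EBP factors, which drive granule genes during maturation.
Camp: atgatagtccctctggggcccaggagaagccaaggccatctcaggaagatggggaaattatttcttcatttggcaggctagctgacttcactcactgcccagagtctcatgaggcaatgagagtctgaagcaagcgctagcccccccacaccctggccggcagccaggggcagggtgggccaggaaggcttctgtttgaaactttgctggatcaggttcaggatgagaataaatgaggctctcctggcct
Ngp: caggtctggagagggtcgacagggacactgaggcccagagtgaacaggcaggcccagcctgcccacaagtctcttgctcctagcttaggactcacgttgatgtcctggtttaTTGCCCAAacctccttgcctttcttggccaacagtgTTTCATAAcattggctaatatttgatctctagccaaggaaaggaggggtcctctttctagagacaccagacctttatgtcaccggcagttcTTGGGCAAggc
Ltf: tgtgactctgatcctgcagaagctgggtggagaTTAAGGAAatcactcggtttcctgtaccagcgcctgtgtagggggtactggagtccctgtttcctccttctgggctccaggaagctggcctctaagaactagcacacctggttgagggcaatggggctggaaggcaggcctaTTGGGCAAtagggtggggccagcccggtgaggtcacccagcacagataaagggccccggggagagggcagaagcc
Lcn2: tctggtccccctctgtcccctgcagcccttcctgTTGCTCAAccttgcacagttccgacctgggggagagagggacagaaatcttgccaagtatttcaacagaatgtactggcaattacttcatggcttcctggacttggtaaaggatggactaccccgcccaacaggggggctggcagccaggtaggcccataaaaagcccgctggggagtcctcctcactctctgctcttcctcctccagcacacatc
Retnlg: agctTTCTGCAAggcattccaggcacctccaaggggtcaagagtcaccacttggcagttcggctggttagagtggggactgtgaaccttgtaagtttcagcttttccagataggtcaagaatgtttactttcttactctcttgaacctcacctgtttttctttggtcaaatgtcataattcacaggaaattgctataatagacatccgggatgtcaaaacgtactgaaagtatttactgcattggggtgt
The printed windows are chr9:109849457-109849706 for Camp, chr9:110419558-110419807 for Ngp, chr9:111019042-111019291 for Ltf, chr2:32387740-32387989 for Lcn2 and chr16:48872358-48872607 for Retnlg, each written 5′ to 3′ on the strand of its gene. The GENCODE gene starts further upstream in some cases: it covers all 250 bases of the Lcn2 window, 161 of the Camp window, 61 of the Ngp window, 21 of the Ltf window and 0 of the Retnlg window.

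The motif was found 3 times before Ngp, 2 times before Ltf, and 1 time each before Lcn2 and Retnlg, and not in the Camp window. Ltf and Ngp share the same 8 letters, TTGGGCAA, at bases -75 to -68 of Ltf and -11 to -4 of Ngp, counted from the RefSeq start. The pattern is common: 36.8% of 32851 promoter windows of this length hold it. Of the 9 members with a RefSeq window, Trem1 also held a match, TTGTGAAA at -35 to -28, and Elane, Mpo, Camp and Csf3r held none. GAGGAA, the core of the site of the myeloid factor PU.1 on either strand, was in the windows of Elane, Mpo, Ltf, Lcn2, Csf3r and Trem1, against 23.3% of all windows. TTCNNNGAA, the STAT motif, was found before Trem1 only, against 7.02% of all windows, and it can overlap TTNNGNAA. A match describes letters and is not evidence of binding.

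Across the 8 tested genes, 1 passed the edgeR test over all genes: Retnlg rose in the libraries labelled Ptpro-KO. The same call was made for 4.10% of all 17663 genes (725), and upward for 1.81%, so 1 of 8 is a count of a single gene and no more. None of the 8 fell, against 2.29% of all genes. At an unadjusted p under 0.05 there were 3 (Retnlg, Ltf and Trem1), against 25.0% of all genes, and DESeq2 called the same 3, against 15.4% of the genes it tested. In 2 of the 8, Retnlg and Ltf, every library labelled Ptpro-KO exceeded every library labelled WT, against 16.8% of all genes in this direction and 32.5% in either. The median log2 fold change of the 8 was 1.20, beside 0.03 over all genes, with 7 positive and 1 negative.

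**Figure D1:**
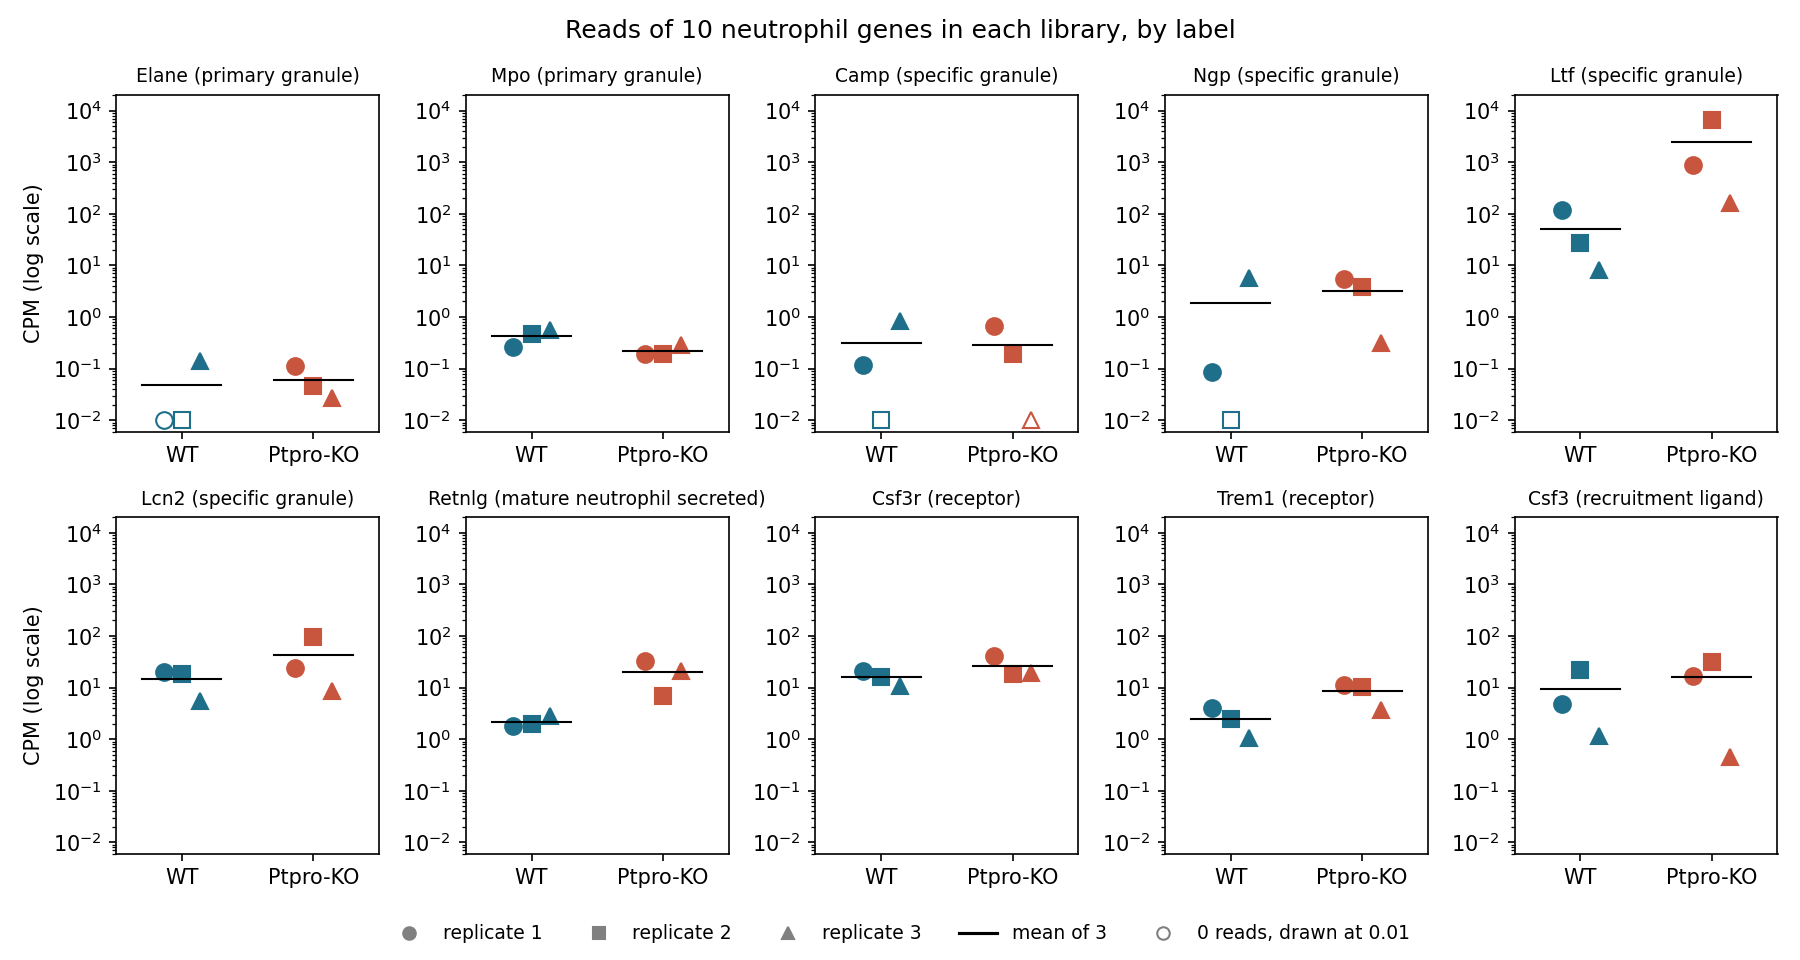
Reads of each of the 10 genes in CPM on a log axis, by label, with 1 symbol per replicate, open symbols for 0 reads and a bar at the mean of 3 libraries. Ltf spans 8.04 to 6469 CPM, Retnlg separates the labels, and Elane, Mpo and Camp stay under 1 CPM throughout.

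Primary granule transcripts were close to absent under both labels. Elane, the serine protease neutrophil elastase, had 0, 0 and 4 reads under the WT label and 4, 2 and 1 reads under the Ptpro-KO label. No library exceeded 0.142 CPM, and 3 reads, the limit that a count of 0 allows, correspond to 0.087 CPM in WT replicate 1 and 0.1196 in WT replicate 2. Elane lies on chromosome 10 at 79886247 to 79888215 and did not pass the filter, so no fold change was fitted; an exact two-sided permutation test of CPM gave p = 0.8 (n = 3 each), where 0.1 is the smallest this design allows.

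Mpo, on chromosome 11 at 87793581 to 87804413, encodes the heme enzyme that makes hypochlorous acid and had 9, 12 and 16 reads under the WT label and 7, 8 and 11 under the Ptpro-KO label. These were 0.261, 0.478 and 0.570 CPM against 0.194, 0.188 and 0.290. The libraries overlapped, and the log2 fold change of -0.94 (SE 0.40) had an edgeR adjusted p of 0.218. Of its 63 reads, 76.2% were assigned to a single transcript of 14 exons, ENSMUST00000121303. Prtn3, the neighbour of Elane that encodes proteinase 3, was the only protease of the wider primary granule list to be tested, with 5 reads under the WT label and 79 under the other. Its log2 fold change was 3.53 (SE 0.76) and its adjusted p 0.0616, and all 3 libraries labelled Ptpro-KO lay above the others at only 0.369 to 1.02 CPM. Of the 9 genes of that list, 4 were tested and 0 passed with edgeR, against 4.10% of all genes. At an unadjusted p under 0.05 there were 2, against 25.0% of all genes, and DESeq2 called 2, against 15.4% of the genes it tested. Serpinb1a, an inhibitor of these proteases that epithelial cells also make, held nearly all reads of the list, at 102 ± 19.8 and 157 ± 23.1 CPM (SD, n = 3 each).

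Camp and Ngp, the specific granule members apart from Ltf and Lcn2, varied widely between mice of one label. Camp, the cathelicidin precursor, had 4, 0 and 23 reads under the WT label and 24, 8 and 0 reads under the Ptpro-KO label. It was highest in WT replicate 3 (0.819 CPM) and Ptpro-KO replicate 1 (0.664 CPM) and had no read in 1 library of each label. The exact two-sided permutation test gave p = 1 (n = 3 each), and Camp did not pass the filter. Ngp, a cathelin-related granule protein, had 3, 0 and 158 reads under the WT label and 201, 159 and 12 under the other. WT replicate 3 and Ptpro-KO replicate 1 were nearly equal at 5.62 and 5.56 CPM, Ptpro-KO replicate 2 stood at 3.73, and the other 3 libraries were at or under 0.316. The log2 fold change was 0.75 (SE 1.81) with an edgeR adjusted p of 0.836, and it was 5.95 without WT replicate 3, with an adjusted p of 0.235. Elane was also highest in those same libraries, WT replicate 3 and Ptpro-KO replicate 1, with 4 reads in each.

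Over the 6 libraries Camp and Ngp varied together, with a Pearson correlation of 0.85 in log2 CPM, and Elane with Ngp at 0.93. Ngp with Csf3r had a correlation of 0.12 and Camp with Ltf of 0.05. These are descriptions of 6 libraries that share depth and tissue makeup, and Camp and Elane rest on 59 and 11 reads in all.

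Ltf had far more reads than Camp and Ngp, with 4121, 670 and 226 reads under the WT label and 31316, 275746 and 6211 reads under the Ptpro-KO label. In CPM these were 119, 26.7 and 8.04 against 867, 6469 and 164, so the lowest library labelled Ptpro-KO lay above the highest labelled WT, and Ptpro-KO replicate 2 stood far above the rest. In that library Ltf was the 9th most abundant gene and took 0.692% of all reads (95% Wilson interval 0.690% to 0.695%, counting error only). In WT replicate 3 its share was 0.000769%. The group means were 51.4 ± 59.7 and 2500 ± 3455 CPM (SD, n = 3 each).

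The log2 fold change of Ltf was 5.60 (SE 1.76), or 48.6-fold, and the edgeR adjusted p of 0.126 did not pass. DESeq2 gave an adjusted p of 0.00287 for the same counts. Without Ptpro-KO replicate 2 the log2 fold change was 3.33 (edgeR adjusted p = 0.213). All Ltf reads were assigned to 1 transcript of 17 exons, ENSMUST00000035077.

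Lcn2, which withholds iron from bacteria by binding their siderophores, was also highest in Ptpro-KO replicates 2 and 1, but its labels overlapped. Its values were 19.8, 18.7 and 5.41 CPM under the WT label and 23.5, 97.7 and 8.59 under the Ptpro-KO label. Ptpro-KO replicate 3 lay below 2 of the libraries labelled WT. The log2 fold change was 1.57 (SE 0.95, edgeR adjusted p = 0.366), and 0.13 without Ptpro-KO replicate 2. Over the 6 libraries Ltf had a correlation of 0.86 with Lcn2, 0.94 with Trem1, 0.61 with Csf3r and 0.34 with Ngp.

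Ratios between the genes were taken per transcript length. In RPKM, which scales reads by transcript length and library size, Ltf over Lcn2 was 2.02, 0.478 and 0.497 under the WT label and 12.3, 22.1 and 6.36 under the Ptpro-KO label, with no overlap. Ltf over Ngp did not part the labels: it was 610 in WT replicate 1 and 0.635 in WT replicate 3, with no Ngp read in WT replicate 2, and 69.2, 770 and 230 under the Ptpro-KO label. Ltf over Csf3r ran from 0.865 to 6.00 under the WT label and from 9.91 to 377 under the other. Lcn2 over Csf3r was 1.74 to 3.83 and 1.56 to 17.0, and 17.0 was Ptpro-KO replicate 2. WT replicate 3 was the highest of the 6 libraries in Ngp in CPM and the lowest in Ltf.

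Genes of glands and mucous epithelium were mostly higher under the Ptpro-KO label, with some lower. Of 24 such genes 20 were tested, and 16 had positive and 4 negative fold changes. At an unadjusted p under 0.05 there were 16, against 25.0% of all genes, and DESeq2 called 13, against 15.4% of the genes it tested. In 13 genes every library labelled Ptpro-KO lay above every library labelled WT, against 16.8% of all genes. In the edgeR test 4 rose, against 1.81% of all genes: the simple-epithelium keratins Krt8, Krt18 and Krt19 and the water channel Aqp5. Their log2 fold changes were 9.34, 5.90, 8.62 and 6.51 (edgeR adjusted p = 0.0125, 0.0125, 0.0217 and 0.0295). With 1 library left out, Krt18 passed in 3 of 6 fits and each of the other 3 genes in 2 of 6. The list's tested median log2 fold change was 3.96, and its summed level was 1276 to 1601 CPM under the WT label and 1989 to 5609 under the Ptpro-KO label. In Ptpro-KO replicate 2, the library highest in Ltf, Krt7 stood at 798 CPM and Wfdc2 at 341, and Muc5b, a mucin of mucous glands, reached 24.8 CPM against at most 3.43 elsewhere. Ptpro-KO replicate 3 had the highest sum through Dmbt1 (2070 CPM) and Muc5ac (743 CPM), and the lowest Ltf of its label. That library also carried stomach transcripts, and Ptpro-KO replicate 2 thyroid transcripts, and the part of those tissues in the sums was not tested. In 3 genes every library labelled Ptpro-KO lay below every library labelled WT, as in 2778 of all 17663 genes tested. These were Lpo, a secreted peroxidase of glands, Slpi, a protease inhibitor of mucosal secretions, and Bpifa1. Their log2 fold changes were -3.25, -1.16 and -1.91 (edgeR adjusted p = 0.0894, 0.196 and 0.269). Bpifa1, a secretory gene of airways, was at most 1.04 CPM, Scgb1a1 at most 0.553 and Scgb3a1 at most 1.64. The part of gland tissue in the Ltf values was not tested.

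**Figure D2:**
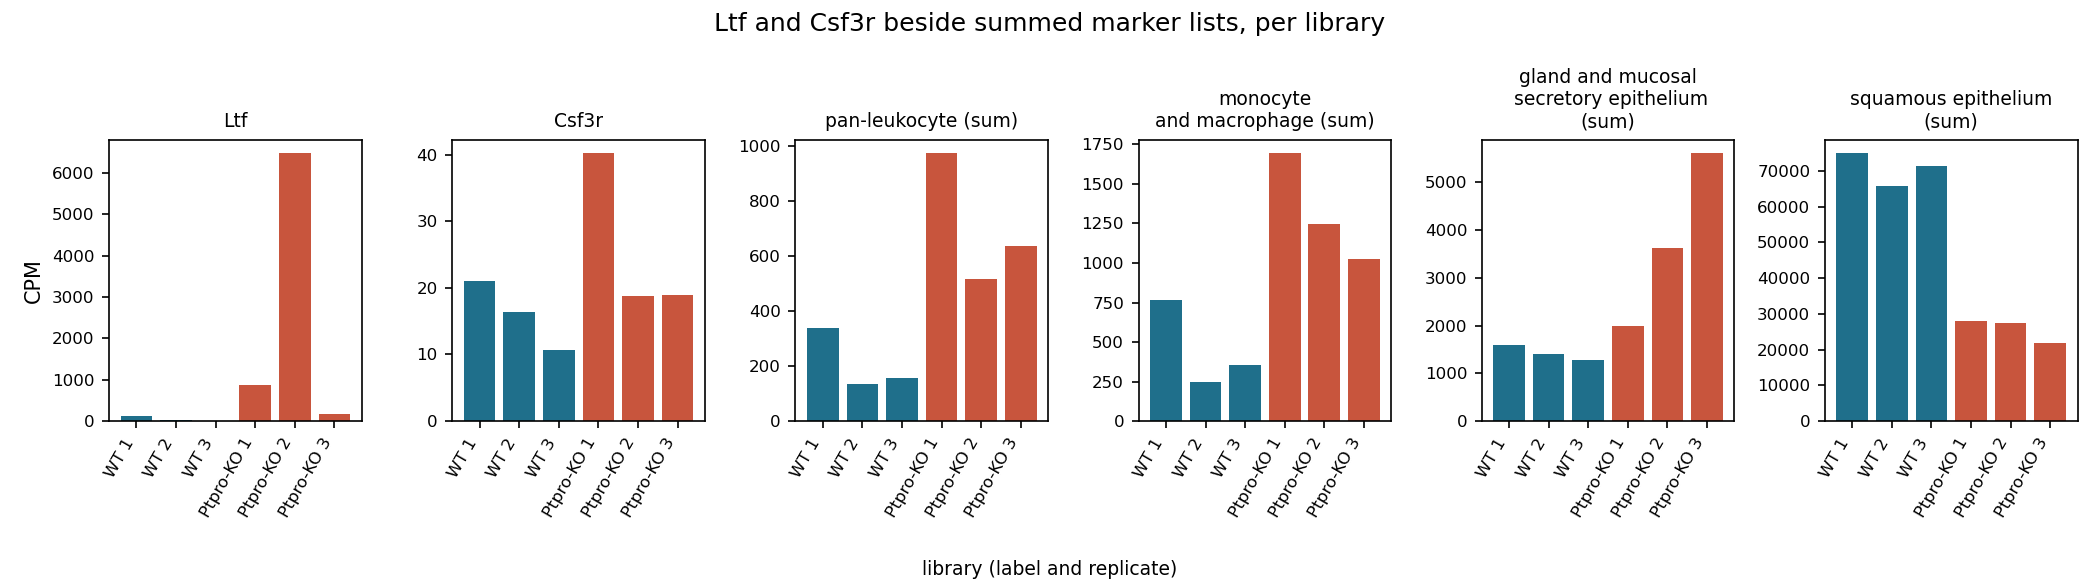
Bars of CPM per library for Ltf, Csf3r and the summed CPM of 4 marker lists, blue for the WT label and red for Ptpro-KO. Ltf peaks in Ptpro-KO replicate 2 at 6469 CPM, whereas Csf3r and the pan-leukocyte sum peak in Ptpro-KO replicate 1, at 40.2 and 972 CPM.

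Among the 5 genes whose log2 CPM followed Ltf most closely over the 6 libraries, of 13820 genes searched, were Ighmbp2, the lipopolysaccharide co-receptor Cd14, the RANKL decoy receptor Tnfrsf11b and Gprc5b (Pearson correlation 0.990 to 0.991). Cd14 ran from 11.8 to 49.0 CPM and Tnfrsf11b from 1.17 to 38.0. For Lcn2 the 5 were Tnfaip3, an inhibitor of NF-kB signalling, Slx4, Igf1r, Usb1 and Smad4 (0.976 to 0.987), with Tnfaip3 at 135 CPM in Ptpro-KO replicate 2 and 25.1 to 58.9 elsewhere. For Csf3r, the member with most reads after Ltf and Lcn2, they included Bcl2l15, the inhibitory lectin Siglece, the ficolin Fcna and Cpne1 (0.955 to 0.986). With 6 libraries and so many genes, correlations this high are a description of order only.

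The wider list of specific and gelatinase granule genes, which includes Ltf, was mostly higher under the Ptpro-KO label. Of 18 in the list, 15 were tested, with 13 positive and 2 negative fold changes and a median log2 fold change of 1.90. In the edgeR test 2 rose, Cd177 and Itgb2l, and 0 fell, against 1.81% and 2.29% of all genes. At an unadjusted p under 0.05 there were 9, against 25.0%, and DESeq2 called 9, against 15.4% of the genes it tested. The labels separated upward in 7, against 16.8% of all genes, and downward in 1, against 2778 of all 17663 genes tested. Cd177, a surface protein that marks a subset of neutrophils, stood at 0.406, 0.558 and 0.392 CPM under the WT label and at 9.88, 11.7 and 34.6 under the other. Its log2 fold change was 5.37 (SE 0.64, edgeR adjusted p = 0.0205). Itgb2l, a neutrophil integrin-like gene, rose on 4 reads against 115 (log2 fold change 4.35, SE 0.74, adjusted p = 0.0404). With 1 library left out, Cd177 passed only without Ptpro-KO replicate 1 or replicate 3, and Itgb2l in 0 of 6 fits. Chil3, an abundant chitinase-like protein that macrophages also secrete, had means of 255 ± 145 and 861 ± 736 CPM (SD, n = 3 each; adjusted p = 0.232). Ly6g, the surface marker used to identify mouse neutrophils, was at most 0.111 CPM in any library, and Fcnb had 0 reads in all 6. Ly6g belongs to a family of near-identical genes, so its count is uncertain.

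Retnlg, a secreted resistin-like protein of circulating neutrophils, was the member that passed. Under the WT label it was measured at 1.80, 1.95 and 2.81 CPM and under the Ptpro-KO label at 32.4, 6.85 and 21.2, and the groups did not overlap. The means were 2.19 ± 0.546 and 20.1 ± 12.8 CPM (SD, n = 3 each). The difference was 9.19-fold, 3.20 on the log2 scale (SE 0.60), with an edgeR adjusted p of 0.0470. The adjusted p lay just under the threshold, and was between 0.0524 and 0.173 when any 1 of the 6 libraries was left out. In those 6 fits the log2 fold change stayed between 2.65 and 3.61, and DESeq2 adjusted p values were 1.22e-20 to 0.000195. Over 14 alternatives it ranged from 1.12e-06 (DESeq2) to 0.173. In 3 of those 6 edgeR fits 0 genes of the whole table passed: without WT replicate 2 (3369 at an unadjusted p under 0.05, 2236 by DESeq2), without WT replicate 3 (3078 and 2032) and without Ptpro-KO replicate 2 (4363 and 3269). Retnlg has related genes of similar sequence, and the handling of shared reads by the authors is not known here.

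Csf3r, on chromosome 4 at 126024550 to 126044440, the receptor for granulocyte colony-stimulating factor, had similar levels in most libraries. Its values were 21.0, 16.4 and 10.6 CPM under the WT label and 40.2, 18.7 and 18.9 under the Ptpro-KO label. Only Ptpro-KO replicate 1 stood above every library labelled WT. The log2 fold change was 0.70 (SE 0.40, edgeR adjusted p = 0.339), and 0.20 without Ptpro-KO replicate 1. Cxcr2, the chemokine receptor of mature neutrophils, ran from 15.9 to 28.7 CPM over all libraries, with a log2 fold change of 0.35 (adjusted p = 0.402). Here Ptpro-KO replicates 1 and 2 (28.7 and 23.4 CPM) stood above every library labelled WT, and replicate 3 was the lowest of all. Retnlg over Csf3r in RPKM was 0.407 to 1.36 under the WT label and 1.80 to 5.78 under the other, with no overlap.

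Trem1, on chromosome 17 at 48232768 to 48246924, an activating receptor of neutrophils and monocytes that amplifies inflammation through the adaptor Tyrobp, stood at 3.97, 2.43 and 1.07 CPM against 11.3, 10.2 and 3.77. Ptpro-KO replicate 3 lay just below WT replicate 1. The log2 fold change of 1.76 (SE 0.61) had an edgeR adjusted p of 0.150 and a DESeq2 adjusted p of 0.0340. Of 13 genes of its pathway and gene cluster, 11 were tested and 10 had positive fold changes. With edgeR 1 rose, against 1.81% of all genes. At an unadjusted p under 0.05 there were 8, against 25.0% of all genes, and DESeq2 called 7, against 15.4% of the genes it tested. The gene that passed with edgeR was Trem2, the macrophage receptor beside Trem1 on chromosome 17. Its means were 1.84 ± 0.979 and 11.4 ± 3.47 CPM (SD for 3 libraries each). Its edgeR log2 fold change was 2.62 (adjusted p = 0.0423), and it passed in 0 of 6 fits with 1 library left out. Tyrobp and the kinase gene Syk had log2 fold changes of 1.84 and 1.34 (adjusted p = 0.0623 and 0.0874). Pglyrp1, a granule peptidoglycan receptor reported as a ligand of TREM1, had 1.90 (adjusted p = 0.143).

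**Figure D3:**
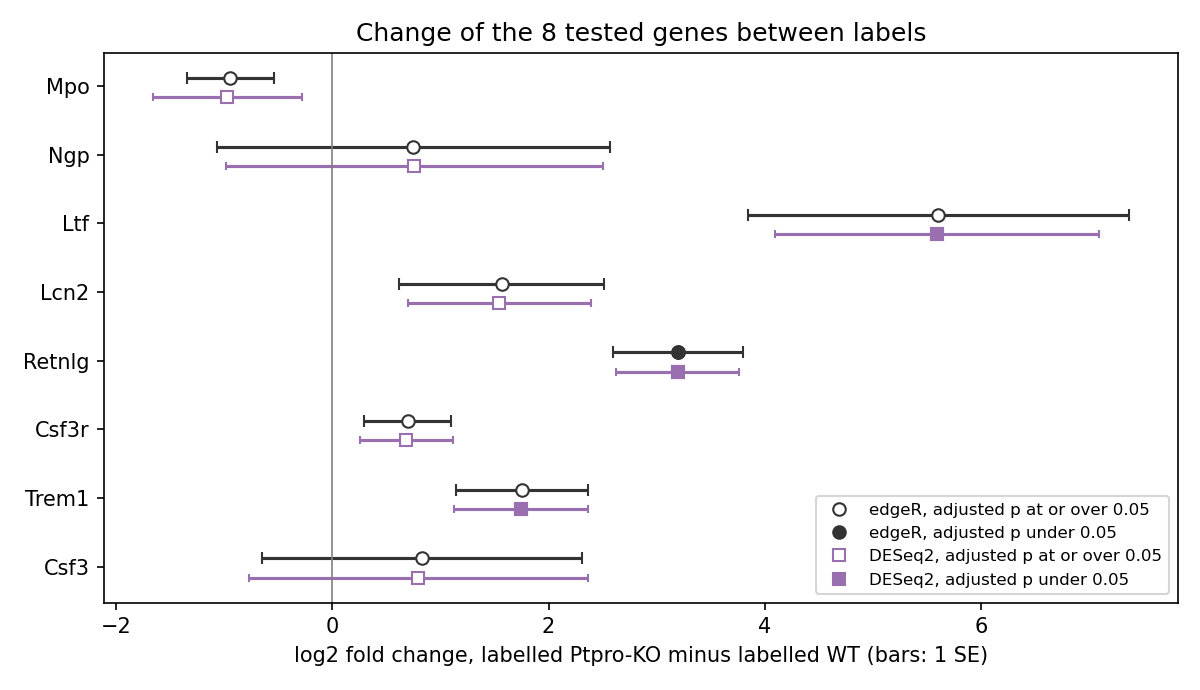
Log2 fold change of the 8 tested genes, labelled Ptpro-KO minus labelled WT, with bars of 1 SE for edgeR (circles) and DESeq2 (squares), filled where the adjusted p is under 0.05. Retnlg is filled for both tools, and Ltf and Trem1 for DESeq2 only.

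General leukocyte genes stood higher in the same libraries. All 12 pan-leukocyte genes, among them Ptprc and Itgam, had positive fold changes, with a median of 1.73 on the log2 scale. With edgeR 0 passed, against 4.10% of all genes. At an unadjusted p under 0.05 there were 11, against 25.0% of all genes, and DESeq2 called 10, against 15.4% of the genes it tested. The summed level of the 12 was 135 to 339 CPM under the WT label and 517 to 972 under the other. Monocyte and macrophage genes summed to 248 to 766 and to 1026 to 1693 CPM, with 13 of 15 fold changes positive. Of these, 0 were called by edgeR, 10 had an unadjusted p under 0.05 and 9 were called by DESeq2, against the same shares. Csf3r, Trem1, Chil3 and Trem2 are also expressed in monocytes or macrophages, and the part of those cells in their values was not tested. Red cell and platelet genes, a gauge of blood in the tissue, overlapped between labels, at 54.3 to 129 and 35.9 to 336 CPM.

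Within the wider list of 23 mature neutrophil genes, 21 were tested, and the median log2 fold change was 0.70. In the edgeR test Retnlg rose and the stefin Stfa2 fell, against 1.81% and 2.29% of all genes. At an unadjusted p under 0.05 there were 9, against 25.0% of all genes, and DESeq2 called 7, against 15.4% of the genes it tested. Stfa2 stood at 6.06, 12.0 and 8.47 CPM against 2.38, 1.45 and 1.77 (log2 fold change -2.24, SE 0.34, edgeR adjusted p = 0.0333, passed in 0 of 6 fits with 1 library left out), and it belongs to a family of close copies. Its neighbour in the list, BC100530, ran from 180 to 542 CPM under the WT label and from 25.3 to 59.5 under the other (adjusted p = 0.0539). Asprv1, a protease of keratinized epithelium, was the most abundant of the list at 130.0 to 637 CPM. S100a8 and S100a9, the calprotectin subunits made by neutrophils and by keratinocytes, stood at 1014 ± 372 and 1474 ± 574 CPM under the WT label and at 210.1 ± 186 and 382 ± 282 under the other (SD, n = 3 each; edgeR adjusted p = 0.126 and 0.134). Their libraries separated in the direction opposite to Retnlg and Ltf, and squamous keratins such as Krt6b (log2 fold change -1.92, adjusted p = 0.0125, passed in 2 of 6 fits with 1 library left out) fell in the same libraries. Of the 12 genes of antimicrobial and iron-withholding defence, 1 rose in the edgeR test, against 1.81% of all genes. It was the haemoglobin scavenger Hp, at 11.3 ± 6.14 against 92.8 ± 39.9 CPM (SD, n = 3 each; edgeR adjusted p = 0.0428, passed in 0 of 6 fits with 1 library left out). Of the 12, 7 had an unadjusted p under 0.05 and 6 were called by DESeq2, against 25.0% and 15.4%. The labels separated upward in 5, against 16.8% of all genes, and downward in 3, against 2778 of all 17663 genes tested.

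Recruitment signals varied between mice of one label. Csf3, on chromosome 11 at 98701263 to 98703629, stood at 4.84, 21.7 and 1.14 CPM under the WT label and at 16.6, 32.0 and 0.448 under the Ptpro-KO label, so the highest and the lowest value both came from libraries labelled Ptpro-KO. The log2 fold change was 0.83 (SE 1.48, edgeR adjusted p = 0.773), -0.12 without Ptpro-KO replicate 2 and 2.44 without WT replicate 2. Csf3 followed Lcn2 (correlation 0.82 over 6 libraries) more than Csf3r (0.41) or Retnlg (-0.11).

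Of 28 recruitment genes 27 were tested and 0 passed with edgeR, against 4.10% of all genes. Of these 27, 10 had an unadjusted p under 0.05, against 25.0% of all genes. DESeq2 called 8 of the 27, against 15.4% of the genes it tested. Il17a, which did not pass the edgeR filter, was also called by DESeq2 and is not among the 8. Fold changes were positive in 20 and the median was 0.74 on the log2 scale. Among the CXCR2 ligands, Ppbp, which platelets also store, had means of 14.2 ± 16.0 and 196 ± 160 CPM (SD, n = 3 each; adjusted p = 0.124), and its libraries did not overlap. Cxcl5 reached 179 CPM in Ptpro-KO replicate 2 and 86.7 in replicate 1, but 6.96 in replicate 3, below 2 of the libraries labelled WT (adjusted p = 0.196). Cxcl1 and Cxcl2 had log2 fold changes of 0.38 and 0.16 (adjusted p = 0.846 and 0.891). Csf2, the granulocyte-macrophage factor, had 11 reads under the WT label and 261 under the other (log2 fold change 4.14, adjusted p = 0.0739).

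Interleukin-17 induces Csf3 and CXC chemokines in epithelium, and none of its ligand or receptor genes in the list passed with edgeR. Il17a had 1.97, 0.797 and 0.142 CPM under the WT label and 0.083, 0.164 and 0.026 under the other. Its libraries overlapped and it did not pass the edgeR filter, while its DESeq2 adjusted p was 0.0264. Il17f, Il17c and the receptor chain gene Il17rc were lower in every library labelled Ptpro-KO. Their log2 fold changes were -1.58, -2.41 and -1.03 (edgeR adjusted p = 0.0764, 0.194 and 0.0637, DESeq2 adjusted p = 0.0126, 0.0944 and 0.00123). Il17ra, the other receptor chain, was higher in every library labelled Ptpro-KO, with a log2 fold change of 0.32 (edgeR adjusted p = 0.258, DESeq2 adjusted p = 0.318). Ptpro-KO replicate 3 and WT replicate 3 were low in Csf3, Cxcl1 and Cxcl5 alike.

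**Figure D4:**
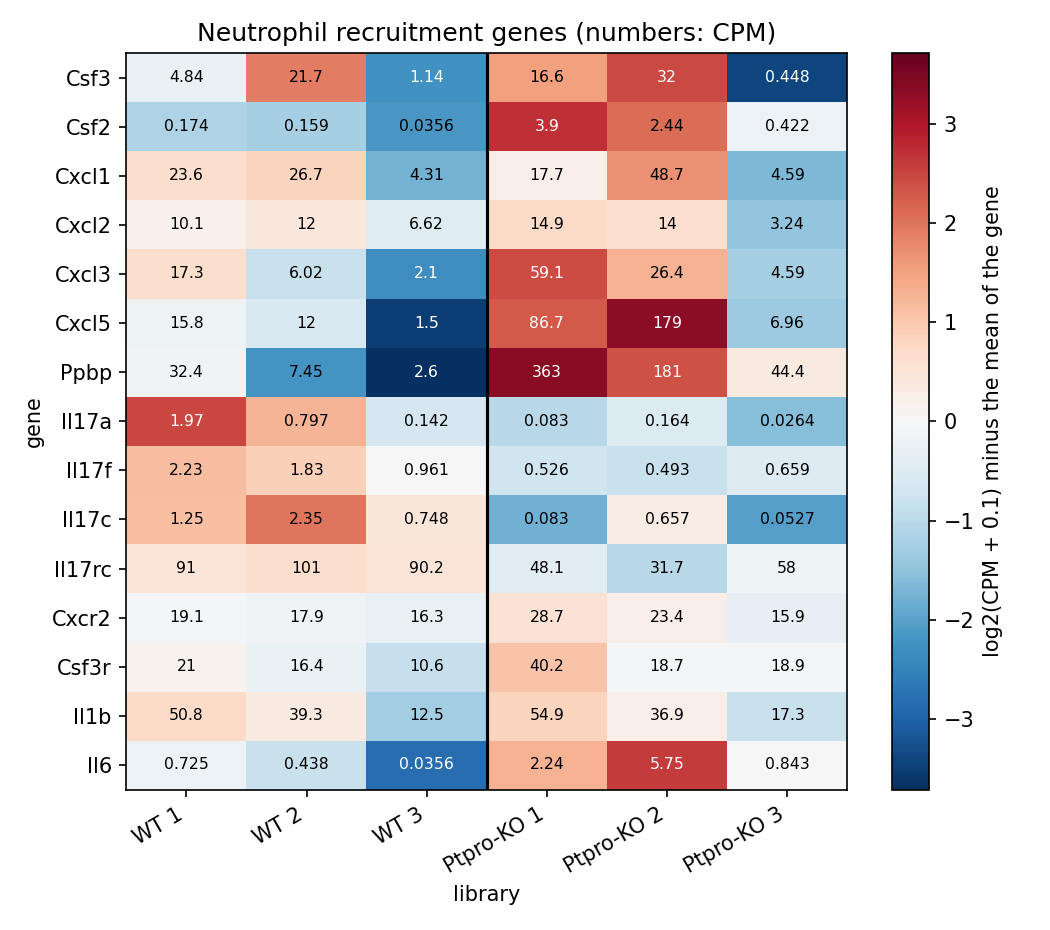
Recruitment genes by library, coloured by log2(CPM + 0.1) minus the mean of the gene, with the CPM printed in each cell and a line between the labels. WT replicate 3 and Ptpro-KO replicate 3 are low in Csf3 (1.14 and 0.448 CPM), and Il17f lies higher in every library of the WT label.

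By level per transcript length over all 6 libraries, the order was Ltf (median 51.6 RPKM), Lcn2 (19.8), Retnlg (8.24), Csf3 (7.52), Csf3r (6.52), Ngp (1.78), Trem1 (1.28), Camp (0.256), Mpo (0.161) and Elane (0.042). The ranges of each pair of neighbours in that order overlapped. The order differed by label: under the WT label the median of Lcn2 (19.8 RPKM) was above that of Ltf (9.49), and Csf3r (5.18) above Retnlg (3.13). Under the Ptpro-KO label the median of Ltf was 321 RPKM, and Retnlg (36.8) was above Lcn2 (26.1).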

How the data were processed

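Per the submitters' processing notes, Bowtie 0.12.2 and mm10 were used. In the deposited files the count per Ensembl transcript is a whole number of reads, and the deposited RPKM scales it by length and summed reads of the library. The sources used here do not say how reads were split between transcripts or whether strand was used. The authors' FPKM gene table served as an alternative, and its 2 further columns were not used. Counts were summed per symbol (100249 transcripts); RPKM of a gene is the sum over its transcripts. Positions come from GENCODE M21 (GRCm38) and promoters from RefSeq.

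Genes passing filterByExpr (10 counts in 3 libraries, 15 in total) were TMM-scaled and compared by quasi-likelihood in edgeR 4.0.16 (R 4.3.3), labelled Ptpro-KO minus labelled WT, with Benjamini-Hochberg adjustment over all genes and a threshold of 0.05. Standard errors are the fold change over the root of F. All adjusted p values come from edgeR unless DESeq2 1.42.0 or limma 3.58.1 is named. Where a DESeq2 count is set against 15.4%, it covers only list genes that passed the edgeR filter. Among all 17663 genes that passed that filter, DESeq2 called 2999. Correlations use log2 CPM with a prior count of 2. The pipeline was tested on simulated counts.

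The members and the 14 gene lists were chosen with earlier results of these data known. The naming rule took all members, the called genes of each list (at most 6), its 4 most abundant genes, and the 5 tested genes most correlated with Ltf, Lcn2 and Csf3r. The text gives part of these, and some are not reported here. Other names were chosen after their values were seen. Mice were 3 per label, per the design text, and libraries were taken as separate mice; no pair of the same label was a duplicate (chi-square per degree of freedom 66.9 to 307). Depth of 25745240 to 39827467 reads limits only the rarest transcripts.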

Additional observations from a re-analysis of the deposited data

How the results depend on the processing

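Of the 10 members, 1 passed in the main analysis, against 3 with DESeq2 (Ltf, Retnlg and Trem1), and 0 with limma-voom, limma on log2(FPKM + 1) or log2(FPKM + 0.1), and with the sex term, which was chosen after seeing the data. Leaving out 1 library gave 0 in each of 6 edgeR fits (0 to 0) and 1 to 4 with DESeq2. Over the whole table, 725 genes passed, against 3103 with DESeq2, 442 with log2(FPKM + 1) and 186 with the sex term, and 0 to 496 with 1 library left out. Members below the filter were 2, and 1 to 2 with 1 library left out. Whether the replicate numbers pair the mice was not settled. Same-numbered libraries correlated at 0.54, 0.08 and -0.24 in their deviations from the group means, and not every library was closest to its own number. With 3 libraries per label these deviations can neither show nor exclude a pairing. With the replicate block 0 members and 237 genes passed. The direction of Csf3 reversed without Ptpro-KO replicate 2 (-0.12 on the log2 scale, with a range of -0.12 to 2.44 over the libraries left out). The other 7 tested members kept their direction over all 14 alternatives: Ltf ran from 3.33 to 7.16, Retnlg from 2.64 to 3.61, Trem1 from 1.07 to 2.26, Lcn2 from 0.13 to 2.05, Csf3r from 0.20 to 0.94, Ngp from 0.07 to 5.95 and Mpo from -1.22 to -0.02. The causes of these shifts were not tested. Called list genes lost their call with some libraries left out: Cd177 passed in 2 of 6 such fits, and Itgb2l, Hp, Trem2 and Stfa2 in 0. Camp, Mpo and Elane rest on 59, 63 and 11 reads in all, which limits their precision.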
